A study of Mus musculus with 8 samples.

Results

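Sirt1 is an NAD-dependent deacetylase, and many of the proteins it deacetylates control transcription. The genes described here encode 9 such substrates, the transcription factors Foxo1, Foxo3, Foxo4, Trp53, Hif1a, Rela and Stat3 and the coactivators Ppargc1a and Crtc2. Probe sets were taken where the array annotation gives one of these symbols as the only gene, whatever their values. Of the 9 genes, 8 had such probe sets, out of 18193 genes with a probe set of their own on the array. These 8 genes were read by 25 of the 45037 probe sets, and 20 of the 25 were abundant enough to be among the 22519 that were tested. Trp53, the gene of p53, was not analysed here, and p53 enters only through its regulators and targets.

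Liver RNA was hybridized to 8 one-colour Affymetrix mouse arrays, with 2 arrays in each of 4 groups. The groups were Sirt1-null mice (MT, sirt1 KO in the labels) of 3 months and wild type mice (WT) of 3, 12 and 19 months. The background was a mixed one of 129, FVB and Black Swiss in all groups, so single mice may differ in their mix. MT mice carried a targeted deletion of Sirt1 in all tissues, few such mice survive to adulthood, and the methods call the mutants male. Livers were collected in the same morning window, and the methods do not state whether the mice were fed or fasted. The methods name more mice for a group than there are arrays, and whether an array stands for 1 mouse or a pool is not stated, so p-values measure the spread between these arrays, which may be technical.

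Acetylation by p300, CBP and related enzymes and deacetylation by Sirt1 alter the activity or stability of these proteins after translation. In fasted liver the glucagon signal activates CRTC2, the coactivator of CREB, which in turn raises Ppargc1a, and PGC-1alpha, its product, works with FOXO1 and HNF4A on gluconeogenic genes such as Pck1. HIF-1alpha answers low oxygen, p65 (Rela) is the main transactivating subunit of NF-kB, and STAT3 carries the interleukin-6 signal to acute phase genes. The arrays measured mRNA alone, so acetylation and protein were outside the measurement. In whole liver, fewer cells of a type and less RNA per cell cannot be told apart.

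A probe set is a group of short probes for one transcript, and its signal is a linear intensity on the scale of the array software. Signals are given as deposited, differences are on the log2 scale, and a probe set was called at a limma adjusted p under 0.05. Array medians lay between 74.5 and 82.8. Hepatocyte markers were all tested (12 of 12) and summed to between 401736 and 522876. Sirt1 itself had signals of 615 and 713 in MT livers, against 589 and 539 in WT livers at 3 months, 437 and 599 at 12 months and 619 and 716 at 19 months. The MT difference at 3 months was 0.23 (adjusted p = 0.674), and the place of this probe set relative to the deleted part is not known here, so it checks no label. Xist, the RNA of the inactive X chromosome, stood at or above percentile 95.2 on all 8 arrays, and 9 Y-linked probe sets stood at or below 43.1, which goes against the male sex that the methods give for the mutants.

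The promoters of 6 of the 8 genes with probe sets were found in a RefSeq table (GRCm38.p6), those of Foxo1, Foxo3, Ppargc1a, Hif1a, Rela and Stat3. The stretch of 250 bases before the start is shown for Ppargc1a and Foxo3, whose probe sets were low together on the arrays of older WT mice, and for Rela, whose probe set was high there. Capitals mark the partial site (5 bases) of the cAMP response element, the CREB motif TGACG, searched on both strands (on the opposite strand it reads CGTCA). They lie at chr5:51567726-51567975 (Ppargc1a, minus strand), chr10:42276696-42276945 (Foxo3, minus strand) and chr19:5637291-5637540 (Rela, plus strand), ending just before the annotated start of each gene.
Ppargc1a: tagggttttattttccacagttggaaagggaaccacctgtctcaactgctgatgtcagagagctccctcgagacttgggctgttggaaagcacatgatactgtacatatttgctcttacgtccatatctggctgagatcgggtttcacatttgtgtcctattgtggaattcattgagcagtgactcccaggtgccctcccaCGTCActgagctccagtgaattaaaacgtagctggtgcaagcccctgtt
Foxo3: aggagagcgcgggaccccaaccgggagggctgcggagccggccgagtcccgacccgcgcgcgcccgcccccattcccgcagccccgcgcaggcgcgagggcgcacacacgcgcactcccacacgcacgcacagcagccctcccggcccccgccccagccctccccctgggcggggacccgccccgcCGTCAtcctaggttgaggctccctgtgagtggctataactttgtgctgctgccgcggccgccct
Rela: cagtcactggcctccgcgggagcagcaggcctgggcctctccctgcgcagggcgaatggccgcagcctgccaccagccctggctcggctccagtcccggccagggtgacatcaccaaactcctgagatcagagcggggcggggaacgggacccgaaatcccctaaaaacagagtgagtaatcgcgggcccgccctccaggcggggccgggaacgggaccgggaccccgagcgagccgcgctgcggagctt
Of the 6 windows, those of Ppargc1a and Foxo3 held this partial site, at 49 to 45 and at 64 to 60 bases before the start. It occurs in 17.8% of all 32851 promoter windows of this length. The full element TGACGTCA (1.55% of all windows), the FOXO motif GTAAACA (3.17%) and the STAT motif TTCNNNGAA (7.02%) were found in none of the 6. A single window was searched for each gene. Sequence before any other start of these genes, Ppargc1a included, was not searched, so a motif missing here may lie elsewhere. The hypoxia response core ACGTG (16.6%), which is also part of the E-box CACGTG (6.02%), occurred in Ppargc1a and Hif1a, and the E-box in Hif1a alone. These matches describe the letters and show no binding. The GC content of the window was 48.0% for Ppargc1a, 76.4% for Foxo3 and 70.4% for Rela, against a median of 52.4% over all windows.

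Each of the 8 genes had at least 1 probe set above the array median on all 8 arrays, and no probe set of any of them passed the test in any comparison. Of the 20 member probe sets, 0 were called between MT and WT mice at 3 months, where 0.515% of all tested probe sets were called, 0 between WT mice of 12 and 3 months (0.0133%) and 0 between WT mice of 19 and 3 months (0.0355%). Likewise 0 of 20 were called between MT mice and WT mice of 19 months (0.275%) and between MT mice and WT mice of all ages (0.795%). Each of these shares amounts to less than 1 call among 20 probe sets. At an unadjusted p under 0.05 the member counts in these comparisons were 1, 5, 7, 9 and 8 of 20, beside 13.5%, 8.57%, 12.5%, 13.0% and 14.4% of all tested probe sets. Probe sets of 1 gene share its transcript, and the 5 of Ppargc1a account for 4, 4, 5 and 5 of those counts in the last 4 comparisons. Age and genotype are not matched in the comparisons of MT mice with WT mice of 19 months or of all ages. The value for WT mice of all ages is the mean of the WT group means.

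**Figure D1:**
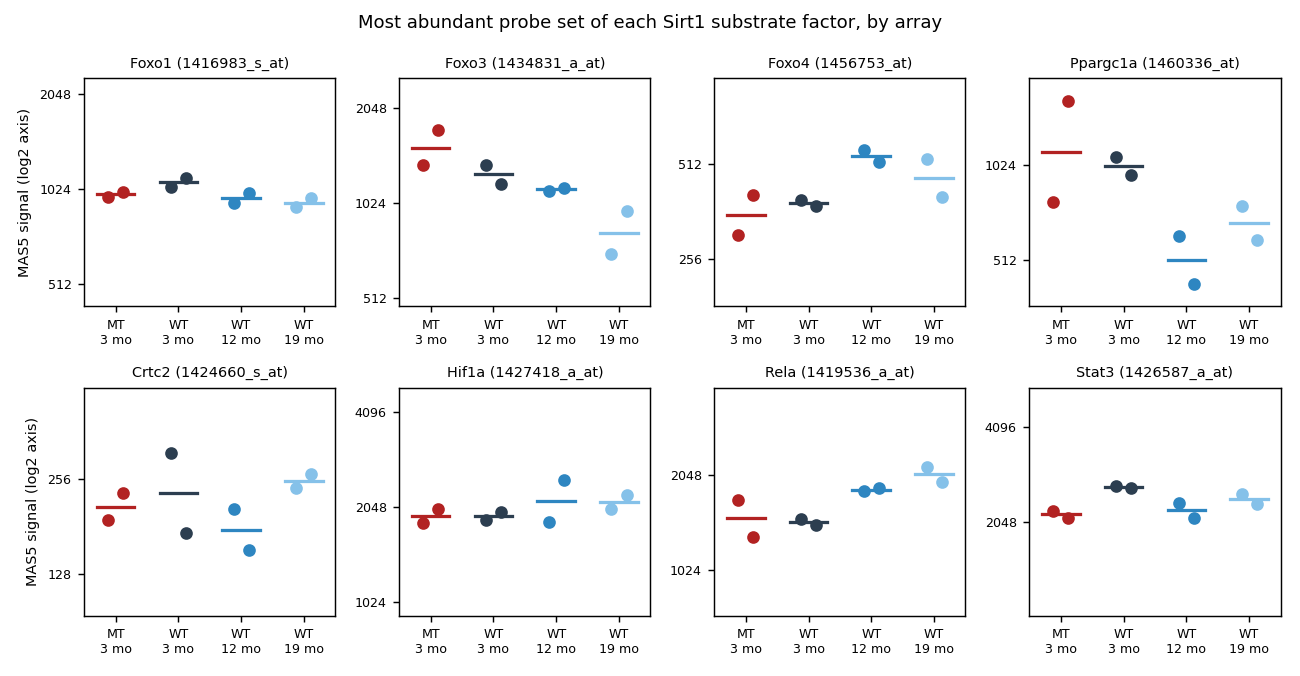
MAS5 signal (vertical axis, log2 spacing, the same span of doublings in each panel) of the most abundant probe set of each of 8 genes; points are single arrays and bars the geometric mean of the 2 arrays of a group. Ppargc1a and Foxo3 lie lower and Rela higher on all 4 arrays of 12- and 19-month-old WT mice than on the 4 arrays of 3-month-old mice. Foxo1, Foxo4, Crtc2, Hif1a and Stat3 overlap between these sets of arrays. Among WT arrays alone, Foxo1 and Stat3 lie higher and Foxo4 lower at 3 months than at both older ages, and Hif1a lower at 3 than at 19 months.

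Ppargc1a, the fasting-induced coactivator of mitochondrial and gluconeogenic genes, showed the largest differences among these genes. Its most abundant probe set, 1460336_at, had signals of 780 and 1639 in MT livers, against 1090 and 954 in WT livers at 3 months, 612 and 430 at 12 months and 757 and 593 at 19 months. All 4 arrays of older WT mice were below all 4 arrays of 3-month-old mice of both genotypes, and the 2 MT arrays lay on either side of the WT arrays of their age. The second, 1456395_at, had 665 and 1174 in MT livers, against 670 and 580, 441 and 369, and 296 and 331 in WT livers of 3, 12 and 19 months. Here too the older WT arrays were the lowest, and MT array 2 was the highest of all.

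The other 3 probe sets of Ppargc1a were likewise lower on the older WT arrays. Probe set 1434100_x_at, whose suffix marks probes that may match other transcripts, had 391.7 and 769 in MT livers, against 519 and 531, 374 and 264, and 199.6 and 305 in WT livers of 3, 12 and 19 months. Probe set 1434099_at had 417 and 866 in MT livers, against 459 and 447, 257 and 221, and 275 and 269 in those WT livers. Probe set 1437751_at had 312 and 448 in MT livers, against 361 and 310.0, 236 and 171, and 181 and 177 in those WT livers. In all 5 probe sets the older WT arrays lay below every 3-month array, but the order of 12 and 19 months differed between probe sets. The mean was lower at 19 months in 1456395_at, 1434100_x_at and 1437751_at and lower at 12 months in 1460336_at and 1434099_at. The arrays of these ages did not overlap in 1456395_at and in 1434099_at, which ran in opposite directions, and overlapped in the other 3. Across the 8 arrays the 5 probe sets correlated pairwise at r = 0.80 to 0.97 (median 0.93 over 10 pairs), as a description of probe sets on the same arrays.

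**Figure D2:**
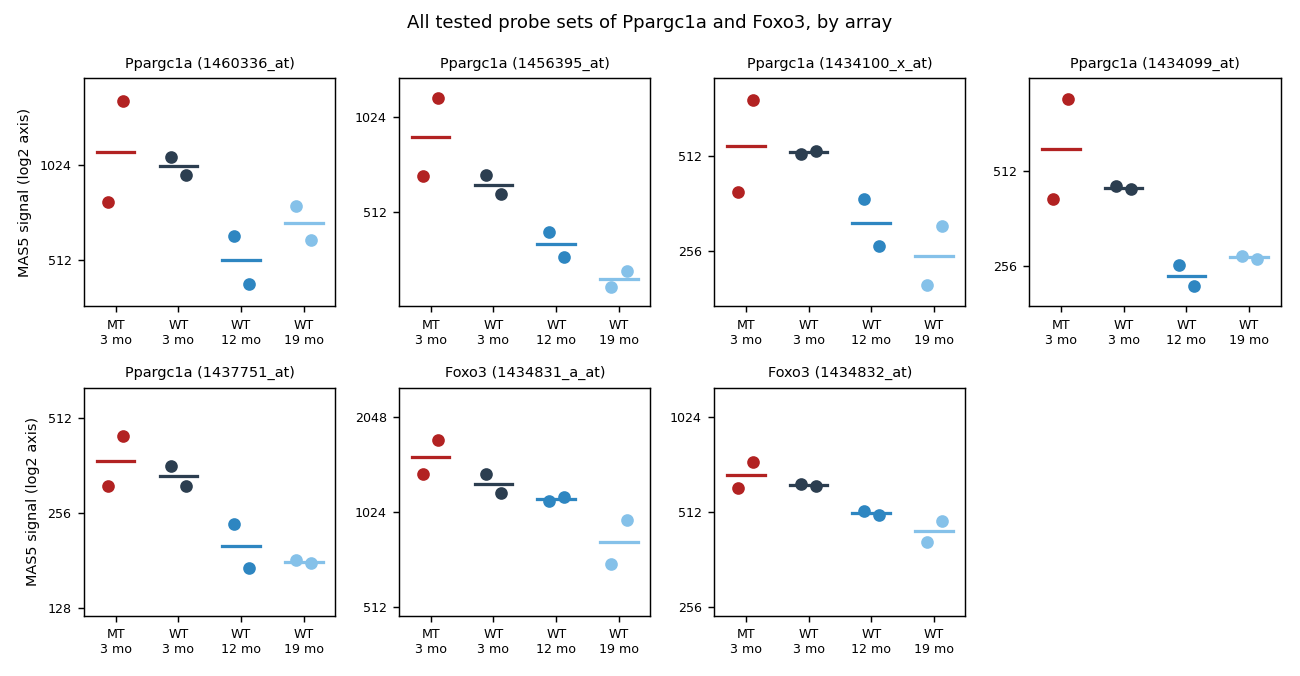
MAS5 signal (vertical axis, log2 spacing) of the 5 tested probe sets of Ppargc1a and the 2 of Foxo3; points are arrays and bars the geometric mean of the 2 arrays of a group. In each of the 7 panels the 4 arrays of 12- and 19-month-old WT mice are below the 4 arrays of 3-month-old mice, and MT array 2 is the highest point.

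Between WT mice of 12 and 3 months the Ppargc1a log2 differences ran between -0.99 and -0.63, with limma adjusted p of 0.451 to 0.590. Between 19 and 3 months they ran between -1.09 and -0.61, with adjusted p of 0.227 to 0.494. The 95% interval for 1456395_at at 19 months (-0.99) reached from -1.58 to -0.41 before any adjustment over probe sets. None of these differences passed the test.

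Between MT and WT mice at 3 months the same probe sets differed by 0.06 to 0.50 (adjusted p of 0.443 or more). The widest, 0.50 ± 0.26 (SE, n = 2 arrays per group) for 1456395_at, had a 95% interval of -0.08 to 1.09. This value rested on MT array 2. Without it 4 of the 5 differences were below 0, at -0.12 for 1434099_at, -0.10 for 1437751_at, -0.39 for 1460336_at and -0.42 for 1434100_x_at, and the other one was 0.09.

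Set against WT mice of 19 months, MT livers had Ppargc1a signals higher by 0.75 to 1.5 on the log2 scale. The smallest adjusted p of any member in any comparison was that of 1456395_at here, 1.5 ± 0.26 (SE, n = 2 arrays per group, adjusted p = 0.0587), followed by its difference of 1.04 from WT mice of all ages (adjusted p = 0.0663). Both narrowly missed the threshold. Neither comparison matches age, and against WT mice of 3 months this probe set differed by 0.50 (adjusted p = 0.443). Again the choice of MT array mattered. Without MT array 1 the probe set passed in both comparisons, at 1.91 (adjusted p = 0.0222) and 1.45 (adjusted p = 0.0283), and so did 1434099_at, at 1.67 (adjusted p = 0.0388) and 1.49 (adjusted p = 0.0261). Without MT array 2 the difference of 1456395_at from 19-month-old WT mice was 1.09 (adjusted p = 0.226).

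Foxo3, the FOXO factor known for its part in stress resistance and longevity, had 3 probe sets, of which 2 were tested. Probe set 1434831_a_at had signals of 1348 and 1735 in MT livers, against 1347 and 1175 in WT livers at 3 months, 1113 and 1142 at 12 months and 701 and 965 at 19 months. The group means were highest in MT mice and then followed the WT ages of 3, 12 and 19 months downward. The arrays of adjacent WT ages did not overlap, but MT array 1 and WT array 1 of 3 months had nearly the same signal. Probe set 1434832_at had 613 and 740.2 in MT livers, against 631 and 621, 519 and 503, and 413 and 480.2 in WT livers of 3, 12 and 19 months. The 2 probe sets correlated at r = 0.95 across the arrays.

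The Foxo3 difference between 19 and 3 months was -0.61 ± 0.20 (adjusted p = 0.283) and -0.49 ± 0.17 (adjusted p = 0.313) in the 2 probe sets (SE, n = 2 arrays per group). Between 12 and 3 months it was -0.16 and -0.29 (adjusted p of 0.692 or more). Between MT and WT mice at 3 months it was 0.28 (adjusted p = 0.586) and 0.11 (adjusted p = 0.851), and between MT mice and WT mice of 19 months 0.89 (adjusted p = 0.111) and 0.60 (adjusted p = 0.212). None passed. The third Foxo3 probe set, 1450236_at, was low and not tested, with signals between 6.89 and 76.8.

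Rela, the p65 subunit of NF-kB, was read by a single probe set (1419536_a_at). It was the only member with higher signals on all arrays of older WT mice than on all arrays of 3-month-old mice of both genotypes. Its signals were 1704 and 1304 in MT livers, against 1479 and 1414 in WT livers at 3 months, 1813 and 1853 at 12 months and 2165 and 1945 at 19 months. The WT ages did not overlap with one another, and the MT arrays lay on either side of WT at 3 months. The differences were 0.34 (adjusted p = 0.611) at 12 months, 0.50 ± 0.16 (adjusted p = 0.283) at 19 months (SE, n = 2 arrays per group), 0.04 (adjusted p = 0.941) for MT against WT at 3 months and -0.46 (adjusted p = 0.281) for MT mice against WT mice of 19 months. None passed the test.

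Across the 20 probe sets, all 4 arrays of 12- and 19-month-old WT mice lay below all 4 arrays of 3-month-old mice in 7, the 5 of Ppargc1a and the 2 of Foxo3, where 2.17% of all tested probe sets did so. They lay above in 1, that of Rela, where 2.64% of all did so. This grouping puts MT with WT mice of 3 months and is a split by age, and the 7 probe sets stand for 2 genes. Other measures separated the same arrays. The log2 gap between the 3′ and the 5′ control probe set of pyruvate carboxylase, which widens as RNA or its labelling product shortens, was 4.54 to 5.86 on the 4 arrays of older mice and 3.88 to 4.25 on the arrays of 3-month-old mice. The summed signal of B and plasma cell markers (6 tested of 9 listed, with Cd79a low) was 3917 to 8638 on the arrays of older mice and 1231 to 1900 on those of 3-month-old mice. Stellate and fibroblast markers (9 tested of 10, with Col1a1 low) summed to 17047 to 19540 on the arrays of older mice and 19861 to 21478 on those of 3-month-old mice. The part of these measures in the Ppargc1a, Foxo3 and Rela values was not tested. The corresponding gaps of beta-actin and Gapdh overlapped between the ages.

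Stat3, which is activated by interleukin-6 and leptin receptors, was the member with the clearest difference between genotypes at 3 months, although it did not pass. Probe set 1460700_at had signals of 1629 and 1616 in MT livers, against 2033 and 2073 in WT livers at 3 months, 2013 and 1856 at 12 months and 2174 and 2005 at 19 months. Both MT arrays were below all 6 WT arrays, as in 6.61% of all tested probe sets. The MT difference at 3 months was -0.34 ± 0.13 (SE, n = 2 arrays per group, adjusted p = 0.306), with an unadjusted 95% interval of -0.64 to -0.04. The most abundant Stat3 probe set, 1426587_a_at, had 2218 and 2112 in MT livers, against 2665 and 2617, 2354 and 2105, and 2515 and 2325 in WT livers of 3, 12 and 19 months. There the MT arrays overlapped with the 12-month WT arrays, and the difference at 3 months was -0.29 (adjusted p = 0.390). The other 2 Stat3 probe sets were less abundant. Probe set 1459961_a_at had 340.3 and 281 in MT livers, against 349 and 389, 232 and 313, and 246 and 399.6 in WT livers of 3, 12 and 19 months, and differed by -0.25 at 3 months. Probe set 1424272_at had 103 and 89.4 in MT livers, against 58.2 and 98.5, 75.8 and 132, and 96.8 and 123 in those WT livers, and differed by 0.34 with an SE of 0.41. In 1459961_a_at the MT arrays were below the WT arrays of 3 months and within the range of the older WT arrays. In 1424272_at the groups overlapped. Pairs of Stat3 probe sets correlated at r = -0.56 to 0.77, so the 4 did not move as one.

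Foxo4, a FOXO factor of the same family, had signals of 304 and 409 in MT livers (1456753_at), against 393 and 376 in WT livers at 3 months, 567 and 518 at 12 months and 531 and 403 at 19 months. The arrays of 12-month-old WT mice were above those of both groups of 3 months, while an array of 19-month-old mice fell within the MT range. All WT arrays of 12 and 19 months were above both WT arrays of 3 months. The differences were 0.50 (adjusted p = 0.570) at 12 months, 0.27 (adjusted p = 0.660) at 19 months and -0.12 (adjusted p = 0.858) for MT against WT at 3 months. Its other probe set, 1422149_at, was low, with signals between 8.70 and 69.7, and was not tested.

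Foxo1, the main FOXO factor of insulin signalling in hepatocytes, varied little between groups. Its most abundant probe set, 1416983_s_at, had 969.7 and 1007 in MT livers, against 1043 and 1113 in WT livers at 3 months, 924 and 994 at 12 months and 900.4 and 960.2 at 19 months. All 8 arrays lay between 900.4 and 1113. Both WT arrays of 3 months were above all WT arrays of 12 and 19 months, while the MT arrays overlapped with the older WT arrays. The MT difference at 3 months was -0.12, with a 95% interval of -0.45 to 0.20, and over the 3 tested probe sets the differences were -0.12 to 0.11 for MT against WT at 3 months, -0.17 to 0.02 at 12 months and -0.36 to -0.21 at 19 months, with an adjusted p of 0.504 or more. Probe set 1416981_at had 965 and 1158 in MT livers, against 943 and 1018, 1036 and 849.9, and 749 and 952 in WT livers of 3, 12 and 19 months. Probe set 1416982_at had 386 and 306 in MT livers, against 394 and 354, 396 and 364, and 292 and 291 in those WT livers, with the 19-month arrays the lowest. The 3 probe sets correlated at only 0.20 to 0.43 across arrays. Probe set 1456529_at was low, with signals between 3.25 and 57.7, and was not tested.

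Hif1a, the oxygen-regulated subunit of HIF-1, had signals of 1812 and 2013 in MT livers (1427418_a_at), against 1860.0 and 1967 in WT livers at 3 months, 1829 and 2484 at 12 months and 2008 and 2236 at 19 months. The MT arrays overlapped with each WT group, while the WT arrays of 3 months were below those of 19 months. The MT difference of -0.0019 at 3 months had a 95% interval of -0.39 to 0.38. The second tested probe set, 1416035_at, differed by 0.26 there, and at 12 and 19 months the 2 probe sets differed by 0.15 to 0.32 with an adjusted p of 0.754 or more. A further 2 Hif1a probe sets were low and not tested, 1448183_a_at with signals between 36.6 and 74.3 and 1431981_at with signals between 2.14 and 22.4.

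Crtc2, the cAMP-regulated coactivator of CREB, was read by 2 probe sets, whose differences between 2 groups had an SE of 0.31 and 0.39. Probe set 1424660_s_at had 189.8 and 230.1 in MT livers, against 308 and 172 in WT livers at 3 months, 206 and 152 at 12 months and 239 and 265 at 19 months. The 2 WT arrays of 3 months span most of the range of all other arrays. The other probe set, 1429373_x_at, lay between 92.6 and 189.4 and correlated with the first at r = 0.014. Crtc2 differences ran between -0.38 and 0.41 in the comparisons with WT mice of 3 months, in both directions, with an adjusted p of 0.782 or more.

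**Figure D3:**
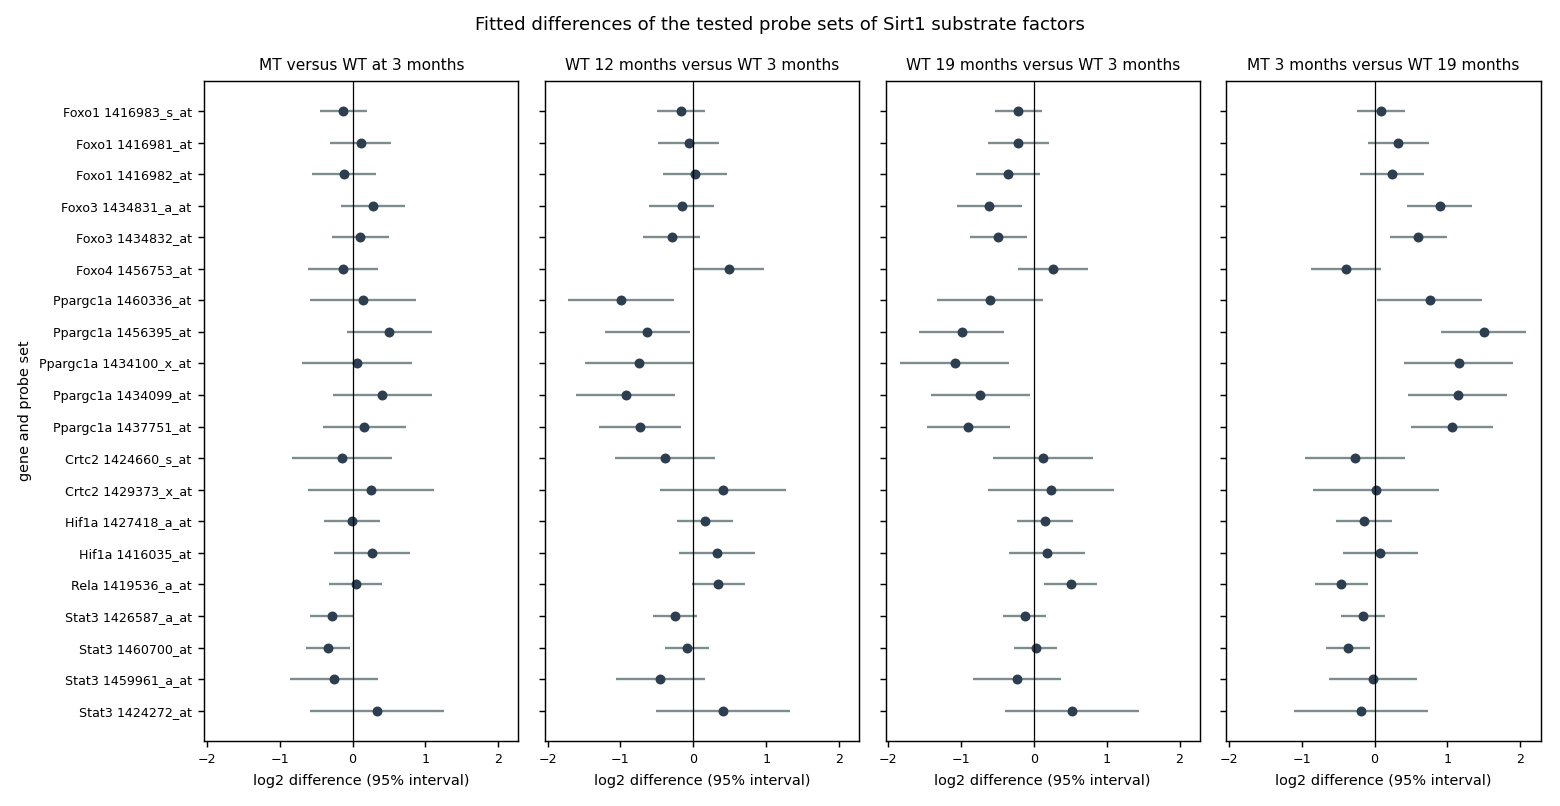
Fitted log2 difference (horizontal axis; points) with its unadjusted 95% interval (lines) for the 20 tested probe sets in 4 comparisons. The Ppargc1a points lie between -1.09 and -0.61 at 12 and 19 months and between 0.75 and 1.5 for MT against WT of 19 months, while most other intervals cross 0.

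Both directions of separation between genotypes were near the background. MT arrays were both above all 6 WT arrays in 1 of 20 member probe sets, Foxo3 1434831_a_at, where 7.36% of all tested probe sets did so, and the margin was 1348 in MT against 1347 in WT. The median size of the member differences at 3 months was 0.16, against 0.23 over all tested probe sets. At 12 months it was 0.36, against 0.19 over all, and at 19 months 0.31, against 0.22 over all. These medians describe 20 probe sets of 8 genes, of which 5 belong to Ppargc1a.

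The genes whose pattern over the 8 arrays was nearest to each member were found by Pearson correlation with the representative probe sets of 10975 other genes. For Ppargc1a these were Ccnd2 (r = 0.97) and Gnpda2 (r = 0.97), and for Foxo3 they were Dnm1l (r = 0.98) and Ndufa1 (r = 0.97). Rela was nearest to Fahd1 and Zfp512b, both at 0.97. Stat3 was nearest to Kyat1 and D6Wsu163e, both at 0.97, Foxo1 to S1pr3 and Bicd2 (0.97 and 0.96), Foxo4 to Mpv17l2 and Cactin (0.97 and 0.96), Hif1a to Enpp3 and Dsg2 (0.98 and 0.97) and Crtc2 to Lrwd1 and Apaf1 (0.95 and 0.94). No member was the nearest gene of another. Among the members, Rela ran opposite to Foxo3 (r = -0.87), Foxo1 (-0.79) and Ppargc1a (-0.78). With 8 arrays in 4 groups and so many genes searched, correlations of this size describe the arrays and carry no test.

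The regulators and targets of the members were followed in 14 lists, each gene by its most abundant probe set. Of the 10976 genes with a tested probe set, 0.702% were called between MT and WT mice at 3 months, and the counts below are read against that share. Paralogs of the members were tested in 10 of 19 cases and 0 were called. Stat5b, the growth hormone-activated relative of Stat3, came nearest, with 846 and 738 in MT livers, against 1516 and 1432 in WT livers at 3 months, a difference of -0.90 (adjusted p = 0.0528). It passed with the replicate number as a block (adjusted p = 0.0467) and without WT array 1 or 2 of 12 months (0.0490 and 0.0482). Of the 21 acetyltransferases and deacetylases 0 were called, and the median difference was 0.08. Hdac5, a class II histone deacetylase, differed by -0.54 (adjusted p = 0.426), and Sirt5, a mitochondrial sirtuin, by -0.32 (adjusted p = 0.459).

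FOXO targets held 2 calls among 25 tested genes between MT and WT mice at 3 months, 1 in each direction. Ccng2, an atypical cyclin that restrains proliferation, had 316 and 653 in MT livers, against 2118 and 2368 in WT livers at 3 months, 2023 and 1647 at 12 months and 985 and 1546 at 19 months. Both MT arrays were below all WT arrays, as in 6.61% of all tested probe sets, and Ccng2 fell by 2.30 on the log2 scale (adjusted p = 0.0205). Nampt, the enzyme that makes nicotinamide mononucleotide in the salvage route to NAD, had 1972 and 2081 in MT livers, against 803 and 899.6 in WT livers at 3 months, 1034 and 1373 at 12 months and 945 and 1274 at 19 months. It rose by 1.25 (adjusted p = 0.0335). The same 2 genes were called against WT mice of all ages, where 1.11% of all genes were called. There Ccng2 differed by -1.92 (adjusted p = 0.0186) and Nampt by 0.97 (adjusted p = 0.0333). At 3 months the list as a whole had 13 genes above 0 and 12 below, with a median of 0.03. Of 12 FOXO regulators 0 were called. Usp7, a deubiquitinase, differed by 0.61 (adjusted p = 0.175), and Akt1, the kinase that sends FOXO proteins out of the nucleus, by 0.81 (adjusted p = 0.229).

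With age the FOXO targets lay mostly below 0. Between WT mice of 19 and 3 months 19 of 25 were below 0, with a median of -0.31, against a median of 0.02 over all 10976 genes, and 0 were called. Sesn3, a sestrin that restrains mTORC1, differed by -0.78 (adjusted p = 0.183), and Insr, the insulin receptor, by -0.47 (adjusted p = 0.238). At 12 months 17 of 25 were below 0, with a median of -0.14, and 0 were called. In MT mice against WT mice of 19 months 18 of 25 were above 0, with a median of 0.27 and 0 calls. Over all genes 48.5% were above 0 there, with a median of -0.01. These comparisons share arrays, and the last one shares its WT arrays with the first. Hepatocyte markers lay the same way, with 10 of 12 below 0 at 19 months (median -0.21) and 10 of 12 above 0 in MT mice against WT mice of 19 months (median 0.34), and 0 were called. Their part in the FOXO target values was not tested.

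Targets of PGC-1alpha and CRTC2 had 0 calls among 19 tested genes in all 5 comparisons. Between MT and WT mice at 3 months 10 were above 0 and 9 below, with a median of 0.00. Idh3a, a subunit of mitochondrial isocitrate dehydrogenase, differed by 0.79 (adjusted p = 0.105), and Alas1, the first enzyme of heme synthesis, by 1.57 (adjusted p = 0.129). At 19 months, where Ppargc1a signals were low, the median of its targets was -0.09 with 11 of 19 below 0. Lpin1, a phosphatidate phosphatase and coactivator, differed by -1.38 (adjusted p = 0.260), and Sod2, mitochondrial superoxide dismutase, by -0.43 (adjusted p = 0.262). In MT mice against WT mice of 19 months the median was 0.33 with 13 of 19 above 0. Over all genes the median was -0.01, with 48.5% above 0. Pck1, the gluconeogenic enzyme that both coactivators raise, differed there by 0.74 (adjusted p = 0.233). Hepatocyte markers, a list that also holds the target Tat, had a median of 0.34 in this comparison, with 10 of 12 above 0. Their part in these target values was not tested.

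Partners and upstream kinases of the 2 coactivators had 0 calls among 18 tested genes. Sik1, the kinase that is induced by CREB and retains CRTC2 in the cytoplasm, had 163 and 184 in MT livers, against 64.6 and 62.1 in WT livers at 3 months, 96.1 and 78.2 at 12 months and 51.2 and 115 at 19 months. Both MT arrays were above all WT arrays, as in 7.36% of all tested probe sets, and the difference of 1.45 did not pass (adjusted p = 0.170). The WT signals of 3 months were low, below the medians of their arrays (79.5 and 81.7). Esrra, the nuclear receptor that PGC-1alpha both induces and coactivates, was above its 3-month level in older mice, by 1.01 at 12 months (adjusted p = 0.297) and 0.82 at 19 months (adjusted p = 0.263), while the Ppargc1a signals were below theirs.

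Of 24 tested p53 targets, 1 was called between MT and WT mice at 3 months, and 2 between MT mice and WT mice of all ages, where 1.11% of all genes were called. Fas, a death receptor, had 558 and 656 in MT livers, against 1466 and 1390 in WT livers at 3 months, 1171 and 875 at 12 months and 1227 and 1602 at 19 months. It fell by 1.24 against WT at 3 months (adjusted p = 0.0355) and by 1.07 against WT of all ages (adjusted p = 0.0281). Cdkn1a, the cyclin-dependent kinase inhibitor p21, had 123 and 142 in MT livers, against 770 and 371 in WT livers at 3 months, 570.4 and 1371 at 12 months and 388 and 704 at 19 months. All 6 WT arrays were above both MT arrays, as in 6.61% of all tested probe sets, and Cdkn1a fell by 2.24 against WT of all ages (adjusted p = 0.0339). In the age-matched comparison at 3 months Cdkn1a was not called. Against WT mice of 19 months 20 of the 24 targets were below 0, with a median of -0.35 and 0 calls, and Fas differed by -1.21 (adjusted p = 0.0524), which passed without WT array 1 or 2 of 12 months (0.0343 and 0.0329). In MT mice against WT mice of 19 months 48.5% of all genes were above 0, with a median of -0.01. Markers of Kupffer cells and macrophages, the phagocytes of the liver, moved with this comparison. All 13 were tested and lay below 0 in MT mice against WT mice of 19 months (median -0.84) and above 0 between WT mice of 19 and 3 months (median 0.64), with 0 calls in each. Their summed signal was 24745 and 26859 on the MT arrays, against 33075 and 32117, 28587 and 28806, and 39219.5 and 61969.5 on the WT arrays of 3, 12 and 19 months. Their part in the p53 target values was not tested. Of 13 p53 regulators 0 were called, and Mdm2, the ubiquitin ligase of p53 and itself a target, differed by -0.54 at 3 months (adjusted p = 0.274).

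HIF targets had 1 call among 20 tested genes. Ndrg1, a stress-induced gene that hypoxia raises, had 472 and 690 in MT livers, against 2145 and 1793 in WT livers at 3 months, 891 and 1103 at 12 months and 908 and 1163 at 19 months. It fell by 1.78 against WT at 3 months (adjusted p = 0.0145) and by 1.14 against WT of all ages (adjusted p = 0.0322), and the older WT arrays lay between both 3-month groups. The list median at 3 months was 0.10, with 14 of 20 above 0. HIF regulators had 0 calls among 12, and Cited2, a competitor of HIF-1alpha for CBP and p300, differed by -1.06 (adjusted p = 0.263).

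NF-kB regulators had 1 call among 16. Tab2, an adaptor of the TAK1 kinase, had 2905 and 3338 in MT livers, against 6293 and 6828 in WT livers at 3 months, 5234 and 4901 at 12 months and 4631 and 5758 at 19 months. It fell by 1.07 against WT at 3 months (adjusted p = 0.0181) and by 0.84 against WT of all ages (adjusted p = 0.022). At 19 months the median of this list was 0.26, with 11 of 16 above 0 and 0 calls, and Bcl3, a nuclear cofactor of NF-kB, differed by 0.80 (adjusted p = 0.170), after 1.05 at 12 months (adjusted p = 0.129). NF-kB targets had 0 calls among 16. At 3 months Ccl5, a chemokine of T and NK cells, differed by -1.14 in MT mice (adjusted p = 0.126). The summed signal of T and NK cell markers, a list that also holds Ccl5, was 683 and 690 on the MT arrays, against 972 and 1111 on the WT arrays of 3 months, with Cd3e, Cd3d, Cd8a and Cd4 low, and its part in that value was not tested. At 19 months Icam1, a leukocyte adhesion molecule, differed by 1.02 (adjusted p = 0.217). The Kupffer cell and macrophage sums given above were highest on those 2 arrays, and their part in the Bcl3, Icam1 and NF-kB list values was not tested.

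STAT3 targets, largely acute phase proteins, were below 0 in 26 of 32 tested genes between MT and WT mice at 3 months, with a median of -0.27. Over all genes 50.6% were above 0, with a median of 0.0045. Against the same WT arrays of 3 months, 23 of 32 were also below 0 in WT mice of 19 months (median -0.13). At 12 months it was 20 of 32 (median -0.05). Over all genes the medians there were 0.02 and 0.01. Of the 32 targets 1 was called between MT and WT mice at 3 months. Orm3, an orosomucoid, had 316 and 187.5 in MT livers, against 711 and 715 in WT livers at 3 months, 336 and 405 at 12 months and 474 and 665 at 19 months. It fell by 1.55 (adjusted p = 0.0487). Orosomucoid genes are near-identical copies, so their probe sets may share transcripts. Against WT mice of all ages the call was Mt2, a metallothionein that also answers glucocorticoids and zinc, at 1195 and 1594 in MT livers, against 14846 and 9125 in WT livers at 3 months, 24112 and 6268 at 12 months and 7359 and 3482 at 19 months. Mt2 fell by 2.70 (adjusted p = 0.0346), and its WT arrays spread widely. In the age-matched comparison at 3 months Mt2 was not called. STAT3 regulators had 0 calls among 15. Socs3, the feedback inhibitor that STAT3 induces, differed by -1.21 at 3 months (adjusted p = 0.118), and Egfr by -1.40 between WT mice of 19 and 3 months (adjusted p = 0.0951), which passed with only the compared groups in the fit (0.0454).

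No gene of the 14 lists was called in the 3 comparisons of WT ages or of MT mice with WT mice of 19 months, where 0.00911%, 0.0364% and 0.337% of all genes were called. Each call named above was lost when some single arrays were left out. The 6 calls at 3 months were lost without either WT array of that age, with a highest adjusted p of 0.147 for Ccng2, 0.239 for Nampt, 0.239 for Fas, 0.129 for Ndrg1, 0.170 for Tab2 and 0.263 for Orm3. Nampt and Fas were also lost without either MT array, Tab2 without MT array 1, and Orm3 without MT array 2 or either WT array of 19 months. Of the calls against WT of all ages, that of Fas (highest adjusted p = 0.113) was lost without any of the 4 arrays of 3 months or WT array 2 of 19 months. That of Cdkn1a (0.145) was lost without either MT array, WT array 1 of 3 months or WT array 2 of 19 months, and that of Ndrg1 (0.131) without MT array 1, either WT array of 3 months or WT array 2 of 19 months. That of Mt2 (0.158) was lost without any array except those of 12 months. Of the same calls, those of Ccng2, Nampt and Tab2 were lost without either WT array of 3 months. That of Ccng2 was also lost without MT array 1, and that of Tab2 without either MT array. The call of Nampt was also lost without either MT array or WT array 1 of 19 months. Without a variance trend in the fit none of the calls remained, with adjusted p of 0.0982 to 0.148.

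**Figure D4:**
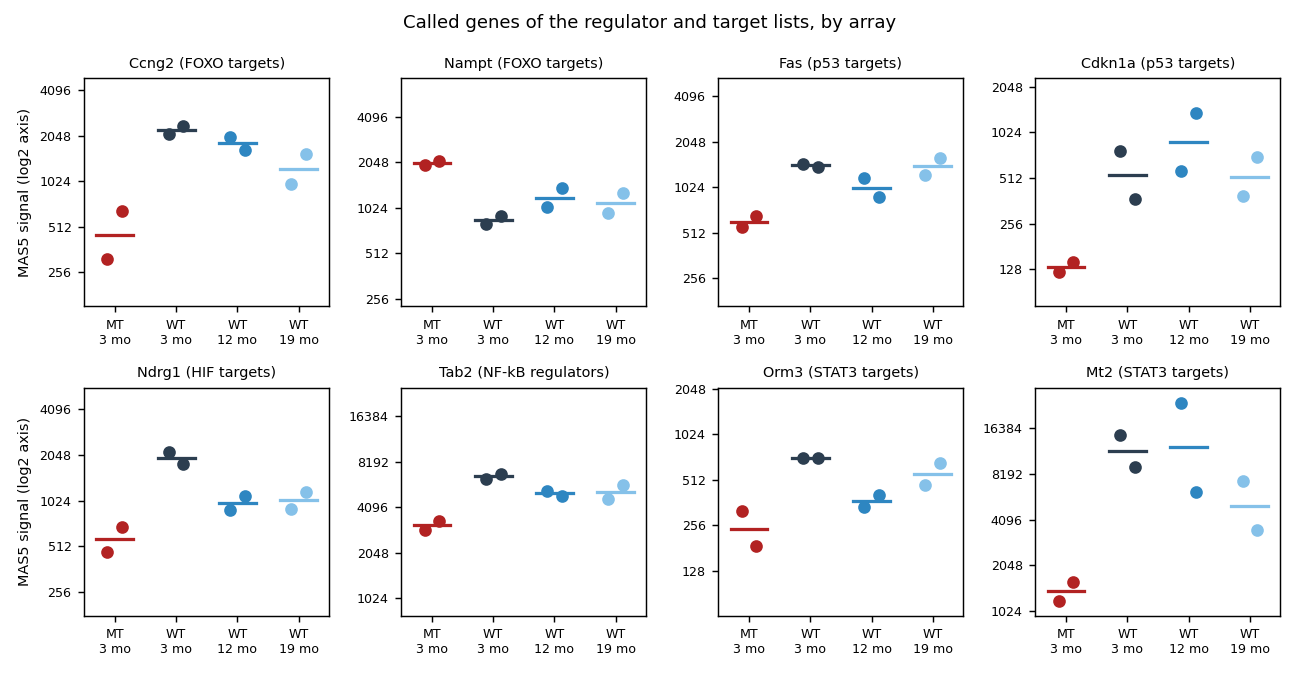
MAS5 signal (vertical axis, log2 spacing) of the 8 called genes of the regulator and target lists; points are arrays and bars the geometric mean of the 2 arrays of a group. Both MT arrays lie below all 6 WT arrays in each panel except that of Nampt, where they lie above. Of all tested probe sets, 6.61% lie below and 7.36% above in this way.

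**Figure D5:**
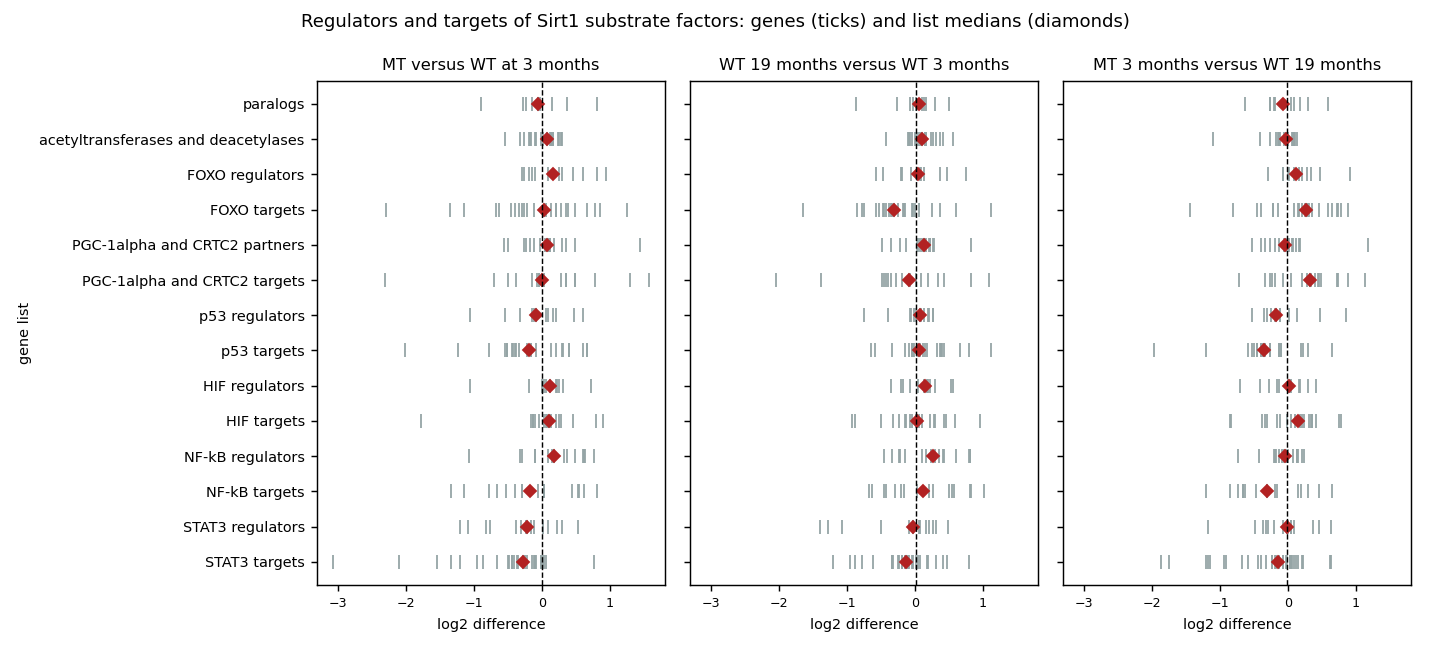
Log2 differences of the tested genes (grey ticks) of 14 lists in 3 comparisons, with the list median (red diamond) and the median of all genes (dashed line). The median of FOXO targets lies at -0.31 at 19 months. That of STAT3 targets lies at -0.27 for MT against WT at 3 months and at -0.13 for WT of 19 against 3 months. That of p53 targets lies at -0.35 for MT against WT of 19 months.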

How the data were processed

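Liver RNA of 8 samples was hybridized to Affymetrix Mouse Genome 430 2.0 arrays, and the deposited values are MAS5 signal intensities on a linear scale that the authors had scaled to a common mean on all arrays. MAS5 is named in the submitters' processing notes, and its version is not stated there. The table holds 45101 probe sets. After removal of 64 Affymetrix controls, 45037 remained, of which 34945 carried 1 gene symbol in the platform annotation, 932 several and 9160 none, and genes were named from probe sets with 1 symbol.

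Signals below 1 were set to 1 and put on the log2 scale. The upper 50% of probe sets by mean (22519, mean log2 of at least 6.18) were fitted with limma 3.58.1 in R 4.3.3 (lmFit, eBayes with a variance trend), with the 4 groups in 1 model (4 residual and 5.37 prior degrees of freedom). P-values are two-sided, adjusted by Benjamini-Hochberg over all tested probe sets of a comparison, and calls were made at an adjusted p under 0.05. With 2 arrays against 2 an exact permutation test reaches at best p = 0.333, and none was run. The most abundant probe set of a gene stood for it in lists.

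All member probe sets are named. For each list, called genes (at most 4 by moderated t) are named, and where none was called up to 2 genes of largest t. The members, lists and comparisons were chosen with earlier results of these data known, so no list is independent evidence. The fit was tested on simulated data. The alternatives were quantile normalization, another log transform, other filters, no variance trend, the groups in the fit, a replicate block, the methods' t-test and leaving out each array. Plots used matplotlib 3.10.9 in Python 3.11.15. The number of arrays limits the precision.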

Additional observations from a re-analysis of the deposited data

Results flagged for a closer look

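One probe set, 1444226_at, is annotated to both Foxo3 and the predicted gene Gm38485. Neither is its only gene, so it stood outside the choice of members, and its mean was too low for it to be tested. It was singled out as a signal in data that no comparison used, after its values had been seen. It had signals of 198.8 and 175 in MT livers, against 10.4 to 52.1 on the 6 arrays of WT livers. In a limma fit of all probe sets with no filter on low values, the log2 difference between MT and WT mice at 3 months was 2.24 (adjusted p = 0.273), and that between MT mice and WT mice of all ages was 2.60 (adjusted p = 0.105). Neither passed the test. The cause was not tested.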

How the results depend on the processing

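No member probe set was called under quantile normalization, log2(signal + 16), no filter on low values, a 75% filter, no variance trend, only the compared groups in the fit or the replicate block. Of the 902 values that the alternatives gave for 55 single differences of the tested probe sets of Ppargc1a, Foxo3, Rela and Foxo4 and the 2 most abundant of Stat3, 886 kept their direction and side of the threshold, 8 came to pass and 8 changed sign. The methods' t-test, at an unadjusted p under 0.05 and a fold over 1.5, passed 1 member probe set between 12 and 3 months (Ppargc1a 1434099_at) and 3 between 19 and 3 months (Ppargc1a 1456395_at, 1434099_at and 1437751_at), and 0 after Benjamini-Hochberg. Leaving out single arrays gave 0 to 2 member calls for MT mice against WT mice of 19 months and 0 to 2 against WT mice of all ages, the 2 being Ppargc1a probe sets without MT array 1, and 0 in the other comparisons.

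These sign changes came from leaving out 1 array of a compared group. For MT against WT at 3 months the range was -0.39 to 0.68 for Ppargc1a 1460336_at, -0.42 to 0.55 for 1434100_x_at, -0.12 to 0.93 for 1434099_at, -0.10 to 0.42 for 1437751_at, -0.030 to 0.24 for Foxo3 1434832_at, -0.34 to 0.088 for Foxo4 and -0.15 to 0.24 for Rela. For Stat3 1460700_at between 19 and 3 months it was -0.034 to 0.083. Over all 100 member differences 31 changed sign under some alternative, in 54 of 1640 values, among them Stat3 1424272_at for MT against WT at 3 months (-0.039 to 0.72) and 1459961_a_at for MT mice against WT mice of 19 months (-0.37 to 0.33).

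The counts over all probe sets moved more. For MT against WT at 3 months (116 calls) they were 9 without a variance trend, 890 by the methods' t-test unadjusted and 0 adjusted, and 15 (without WT array 1 of 3 months) to 250 (without WT array 2 of 12 months) with single arrays left out. For 12 against 3 months (3 calls) they were 0 without a trend, 12 with only the compared groups, 502 and 0 by the t-test, and 0 (without WT array 2 of 3 months) to 20 (without MT array 2). For 19 against 3 months (8 calls) they were 1, 135, 750 and 0, and 2 (without WT array 2 of 3 months) to 30 (without WT array 1 of 12 months) in that order, and 25 with the replicate block. For MT mice against WT mice of 19 months (62 calls) they were 2, 30, 667 and 0, and 6 (without WT array 2 of 19 months) to 129 (without WT array 2 of 12 months). Against WT mice of all ages (179 calls) they were 19 without a trend and 51 (without WT array 1 of 3 months) to 246 (without WT array 1 of 12 months). The cause of these shifts was not tested. The replicate numbers share no stated batch. Deviations of same-numbered arrays correlated at -0.03 to 0.14 over 6 pairs of groups, which cannot show whether these arrays shared a batch. Called list genes remained past the threshold under the block except Orm3 (adjusted p = 0.0644), which also missed with quantile normalization (0.0502), no filter (0.0551), the 75% filter (0.0538) and only the compared groups (0.0636). All of them missed without a variance trend. Of 1985 values for 121 differences of list genes, 76 lost the call and 20 came to pass, most of them by the methods' t-test before adjustment. The rest were those of Stat5b, Fas and Egfr given above, Hdac5 without WT array 1 of 12 months and Cxcl9 without WT array 2 of 3 months, the last 2 against WT mice of all ages (adjusted p = 0.0355 and 0.0386).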
